A study of Ovis aries with 2 samples.

Results

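Fatty acid oxidation was examined in granulosa cells of Hu sheep through 35 genes chosen by name: the carnitine shuttle (4 genes), mitochondrial beta-oxidation (15), peroxisomal enzymes and peroxins (14) and 2 regulators. Members were the transcript entries whose gene name is on that list, with entries of the same name summed. Of the 35 names, 34 were found, among 19909 genes in all, and ACADM is not analysed here. A mean of at least 1 FPKM (fragments scaled to transcript length and to the size of the library) over both libraries was reached by 33 members, which are called measured, and by 11927 genes in all. PPARGC1A, with 3 reads in the supplemented and 1 read in the restricted library, was the member that fell short.

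Granulosa cells were scraped from every visible follicle above 2.5 mm in diameter of multiparous ewes 3 to 4 years old, and their RNA was sequenced. During the luteal phase, the ewes of the short-term supplemented group (8 animals) ate 1560 g of feed a day, 1.5 times maintenance, and the restricted ewes (8 animals) ate 520 g, 0.5 times maintenance. No group was fed at maintenance, so each library can only be set against the other. Each feed level has 1 library, made from RNA of the group, and the labels do not say how many ewes it holds. Variation between ewes was thus not measured, the feed levels could not be tested, and every difference below is between 2 libraries.

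Long-chain fatty acids enter mitochondria as carnitine esters: CPT1 enzymes form the ester on the outer membrane, the carrier SLC25A20 moves it inwards and CPT2 returns it to coenzyme A. Beta-oxidation then removes acetyl units in a cycle of dehydrogenation, hydration, a second dehydrogenation and thiolysis, and the electrons of the first step reach the respiratory chain through the flavoproteins ETFA and ETFB and the oxidoreductase ETFDH. Peroxisomes run a like cycle on very long and branched chains, and import their enzymes with proteins called peroxins. In the follicle, fatty acid oxidation is known as an energy source for the maturing oocyte and its surrounding somatic cells.

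There were 9426679 reads from the supplemented and 11299773 from the restricted group. All 11 granulosa cell markers found were measured and none was at 0 in either library. Their summed level was 11203 FPKM in the supplemented and 25398 FPKM in the restricted library. The direction was opposite for leukocyte markers, with 12 of 13 measured markers at least 2-fold higher, a summed level of 526 FPKM with supplementation and 109 FPKM with restriction and none of the 14 found at 0 reads. Of these 12, ITGAM, at 0.617 FPKM with restriction, counted as measured only through the supplemented library. Stroma and smooth muscle markers summed to 1250 FPKM with supplementation and 634 FPKM with restriction, with 5 of 11 at least 2-fold higher and none at 0. Of that list, 8 genes had intervals wholly above 1, among them COL1A1, COL1A2 and COL3A1, with read ratios of 4.05, 4.48 and 3.60. LUM, PDGFRA and PDGFRB differed the other way, with read ratios of 0.676, 0.531 and 0.573 and intervals wholly below 1. In such bulk RNA, fewer cells of a type and less RNA per cell cannot be told apart. The part of this difference in cell markers in the results below was not tested, except where a value is given.

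Most members differed by less than 1.5-fold between the libraries, as most genes did, and CPT1A was past 2-fold. Their reads made up 0.332% of the supplemented library (95% exact interval 0.328% to 0.335%) and 0.339% of the restricted library (0.336% to 0.343%). On the scale log2((supplemented FPKM + 1) / (restricted FPKM + 1)), 24 of the 33 measured members lay below 0 (72.7%, against 57.8% of all measured genes). The median was -0.12, against -0.08 for all measured genes. As a share of the library total 14 members lay below 0, and the median was 0.078, against 0.11 for all measured genes. The share of all measured genes below 0 with that scaling was not counted. As deposited, 29 of the 33 members lay within 1.5-fold of equality (87.9%, against 78.3% of all measured genes). Only CPT1A was at least 2-fold higher (3.03% of members, against 5.87% of all measured genes) and no member was at least 2-fold lower (against 2.85%), where 8.72% of all measured genes were past 2-fold in either direction. The authors' deposited table calls none of the 37 member entries, against 0.612% of all its entries called up and 0.131% called down.

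The direction of the small differences rests on the scaling. With the deposited scaling, the 95% counting interval of the read ratio lay wholly below 1 for 15 members (45.5%, against 35.7% of all measured genes) and wholly above 1 for 6 (18.2%, against 20.4%). When reads were instead taken as a share of the library total, which adds 0.21 to every log2 read ratio of members and other genes alike, 8 members lay below (24.2%, against 19.4%) and 10 above (30.3%, against 35.3%). Reads were at least 100 in both libraries for 90.9% of measured members and 71.3% of all measured genes, and intervals narrow with reads. These intervals hold the error of counting alone: PCR copies of a molecule were not told apart. Quotients of 2 genes within a library do not move with the scaling, and they are given below where a result turns on them.

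**Figure D1:**
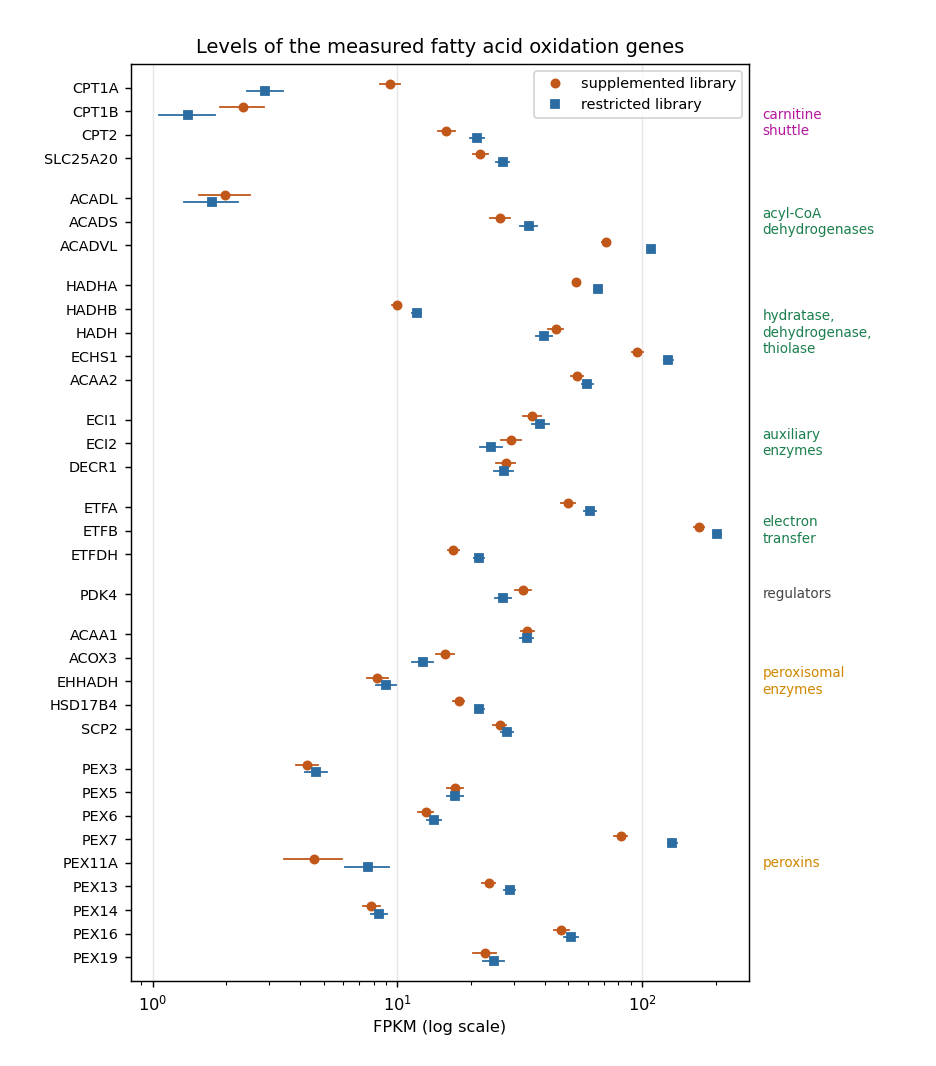
FPKM of the 33 measured members (log axis) in the supplemented (circles) and restricted library (squares), grouped by role, with exact 95% Poisson counting intervals of the reads behind each value as lines. ETFB is highest in both libraries, at 171 FPKM (supplemented) and 202 FPKM (restricted), and CPT1A shows the widest gap between its symbols, at 9.32 FPKM (supplemented) and 2.88 FPKM (restricted).

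The carnitine shuttle was split between its entry enzymes and its later steps. CPT1A, the form of carnitine palmitoyltransferase 1 found in liver and most tissues and the point at which malonyl-CoA restrains entry, stood at 9.32 FPKM (438 reads) in the supplemented and 2.88 FPKM (140 reads) in the restricted library. The log2 ratio was 1.41, and reads were 3.24-fold higher (95% counting interval 2.67 to 3.95). Of the 11927 measured genes, 401 had a ratio at least as high. The gene lies on chromosome 21 of the Oar_v3.1 build, from 45449207 to 45488878. The authors' deposited table gives it a log2 fold change of 1.70 and does not call it. With 1 library per group, the authors' comparison holds no measured variation between ewes.

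CPT1B, the form of muscle, stood much lower, at 2.33 FPKM (97 reads) in the supplemented and 1.39 FPKM (60 reads) in the restricted library. Its reads were 1.67-fold higher (1.20 to 2.35), and its log2 ratio of 0.48 was below the threshold of 1. CPT1A thus held the larger level of this enzyme in both libraries, and its quotient over CPT1B was 4.00 under supplementation and 2.07 under restriction, a 1.93-fold difference (1.30 to 2.85). SLC25A20 stood at 21.8 FPKM with supplementation and 26.9 FPKM with restriction (log2 ratio -0.29) and CPT2 at 15.8 FPKM with supplementation and 21.2 FPKM with restriction (log2 ratio -0.40). Both had intervals wholly below 1, but that of SLC25A20 spanned 1 by share of all reads. The quotient of CPT1A over CPT2 was 0.589 under supplementation and 0.136 under restriction, 4.33-fold apart (3.47 to 5.42), whatever the scaling. CPT2 and SLC25A20 kept nearly the same quotient over the summed mitochondrial beta-oxidation genes, at 0.0548 under supplementation and 0.0583 under restriction (0.965-fold in reads, 0.897 to 1.04).

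**Figure D2:**
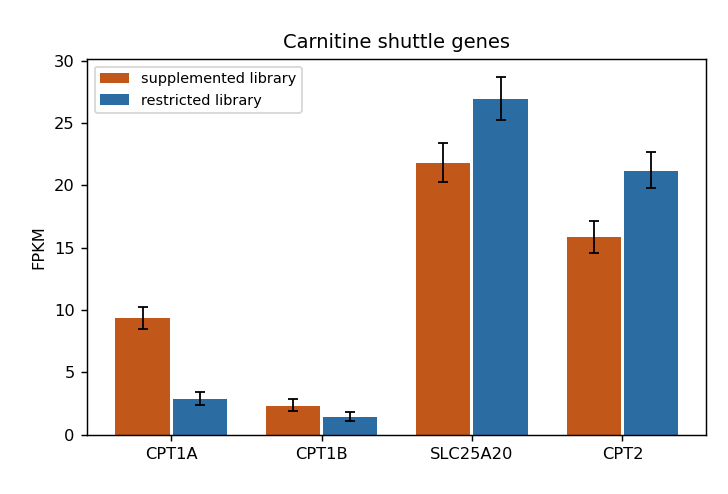
FPKM of the 4 carnitine shuttle genes in the supplemented (left bars) and restricted library (right bars), with exact 95% Poisson counting intervals. CPT1A and CPT1B are higher in the supplemented library and SLC25A20 and CPT2 are lower in it as deposited. When centred on granulosa cell markers, all 33 measured members are higher in it, and the median log2 ratio of all measured genes is then itself 0.84. Each library has 1 bar per gene because neither has a replicate.

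The higher CPT1A level lay in the library that also had higher leukocyte markers and a higher sum of stroma markers, of which 8 of 11 were higher and 3 lower. CPT1A differed less than the leukocyte markers taken as a sum. Its quotient over their summed level was 0.0177 under supplementation and 0.0263 under restriction (0.608-fold in reads, 0.498 to 0.745). This did not hold for each marker. CD3E had a read ratio of 1.54 (1.01 to 2.37), below the 3.24 of CPT1A. So did CD79A, which was not measured, at 2.28 (0.730 to 8.36). The read ratios of the other 12 were above that of CPT1A. Both measured endothelium markers were at least 2-fold higher, and summed reads of the 6 found were 3.06-fold higher (2.67 to 3.53). PECAM1 held 476 of the 808 summed reads with supplementation. EMCN, at 0.425 FPKM (4 reads) with restriction, counted as measured only through the supplemented library. Among those not measured, KDR had a read ratio of 4.21 (2.77 to 6.62) and VWF of 1.35 (1.003 to 1.82). CDH5 (1.36, 0.676 to 2.79) and TEK (1.24, 0.856 to 1.79) had intervals that spanned 1. Of theca cell markers, 2 of 3 were at least 2-fold higher. The same held for 2 of 3 luteal cell markers, while HSD3B was lower. Quotients of CPT1A over these lists were not computed. Striated muscle markers, which bear on CPT1B, summed to 69.3 FPKM with supplementation and 56.0 FPKM with restriction, and none of the 7 found was at 0. Of the 6 measured, ACTA1, MB and TNNC2 were at least 2-fold higher. These 3 were below 1 FPKM with restriction and counted as measured only through the supplemented library, so their number carries no weight. TNNT1 had a read ratio of 1.17 (0.942 to 1.47) and DES of 1.63 (1.41 to 1.89). Creatine kinase CKM differed the other way, at 21.1 FPKM with supplementation and 35.7 FPKM with restriction, while myoglobin MB stood at 9.77 FPKM with supplementation and 0.663 FPKM with restriction. Of the 4 adipocyte markers, LEP had 0 reads and ADIPOQ 1 read in each library, PLIN1 had 12 reads with supplementation and 6 reads with restriction, and CIDEC, the measured marker, stood at 2.61 FPKM with supplementation and 3.49 FPKM with restriction. The part of leukocytes, stroma, endothelium, theca cells, luteal cells and muscle in the CPT1A and CPT1B values was not tested.

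Mitochondrial beta-oxidation had a median log2 ratio of -0.24 as deposited, against -0.08 for all measured genes, whose quartiles were -0.34 and 0.21. Scaling shifts all genes alike: the median was -0.042 against 0.11 for all measured genes as a share of the library total, and 0.76 against 0.84 with granulosa cell markers as the baseline. The 14 genes found were all measured. Their summed level was 688 FPKM in the supplemented and 825 FPKM in the restricted library. Intervals lay wholly below 1 for 9 of the 14 genes (64.3%, against 35.7% of all measured genes), and for 5 by share of all reads (35.7%, against 19.4%). None was past 2-fold.

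Acyl-CoA dehydrogenases carry out the first oxidation and differ in the chain length they take. ACADVL, for very long chains, on chromosome 11 from 26565447 to 26570595, stood at 71.3 FPKM (2847 reads) in the supplemented and 108 FPKM (4486 reads) in the restricted library, 1.52-fold lower (1.45 to 1.60). It was below 1 with the deposited scaling and by share of all reads. Its log2 ratio was 0.43 when centred on granulosa cell markers, against a median of 0.84 for all measured genes. ACADS, for short chains, stood at 26.3 FPKM with supplementation and 34.5 FPKM with restriction, 1.31-fold lower (1.16 to 1.48). ACADL, for long chains, was among the lowest members, at 1.98 FPKM (70 reads) with supplementation and 1.75 FPKM (64 reads) with restriction, and its reads were too few to show a difference (ratio 1.13, 0.795 to 1.61). The quotient of ACADVL over ACADS was 2.71 under supplementation and 3.15 under restriction, 0.861-fold in reads (0.754 to 0.983), a small difference whose interval lies below 1.

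The trifunctional protein, which joins the later steps for long chains, is built from HADHA and HADHB. HADHA stood at 53.9 FPKM with supplementation and 66.0 FPKM with restriction (log2 ratio -0.29) and HADHB at 9.93 FPKM with supplementation and 11.99 FPKM with restriction (log2 ratio -0.25). The balance of the subunits was nearly equal, as their quotient was 5.43 under supplementation and 5.51 under restriction (0.986-fold in reads, 0.915 to 1.06). The deposited table gives both the same locus, chromosome 3 from 33296262 to 33368386, and their scaled values in the restricted library were not whole reads, so reads of that locus may have been divided between them. HADHB had 3.03 times as many reads per FPKM as HADHA, which means that it was normalised to a transcript model 3.03 times as long, so the gap in FPKM between the subunits depends on the models.

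ECHS1, the short-chain hydratase, stood at 95.7 FPKM (1518 reads) in the supplemented and 128 FPKM (2103 reads) in the restricted library, 1.34-fold lower (1.25 to 1.43). It was below 1 with the deposited scaling and by share of all reads, but its log2 ratio was 0.61 when centred on granulosa cell markers. HADH, the short-chain 3-hydroxyacyl-CoA dehydrogenase that acts after ECHS1, was higher as deposited, at 44.4 FPKM (730 reads) with supplementation and 39.7 FPKM (676 reads) with restriction, a ratio of 1.12 (1.01 to 1.24). These neighbouring steps therefore differed in their balance, with a HADH over ECHS1 quotient of 0.463 under supplementation and 0.310 under restriction, 1.50-fold apart (1.32 to 1.70). A second entry named HADH, 441 bases on chromosome 8, had 0 reads in both libraries. ACAA2, the mitochondrial thiolase, stood at 54.1 FPKM with supplementation and 59.8 FPKM with restriction, with a log2 ratio of -0.14 and an interval that spanned 1 by share of all reads.

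The auxiliary enzymes that prepare unsaturated chains were level as deposited. Their summed level was 92.3 FPKM in the supplemented and 89.7 FPKM in the restricted library, a read ratio of 1.03 (0.955 to 1.10). ECI2, an enoyl-CoA isomerase of mitochondria and peroxisomes, stood at 29.1 FPKM with supplementation and 24.1 FPKM with restriction, 1.21-fold higher (1.05 to 1.39). Its mitochondrial counterpart ECI1 stood at 35.5 FPKM with supplementation and 38.4 FPKM with restriction and the dienoyl-CoA reductase DECR1 at 27.7 FPKM with supplementation and 27.2 FPKM with restriction, both with intervals that spanned 1. The quotient of ECI1 over ECI2 was 1.22 under supplementation and 1.59 under restriction, 0.766-fold (0.638 to 0.918).

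Electron transfer genes lay close together. ETFB, the beta chain of the electron transfer flavoprotein, on chromosome 14 from 56366722 to 56379193, was the most abundant member in both libraries, at 171 FPKM in the supplemented and 202 FPKM in the restricted library, and 96.4% of measured genes were at or below it in each. ETFA, the alpha chain, stood at 49.9 FPKM with supplementation and 61.3 FPKM with restriction, and ETFDH, which passes the electrons to ubiquinone, at 16.9 FPKM with supplementation and 21.5 FPKM with restriction. The log2 ratios were -0.24 for ETFB, -0.29 for ETFA and -0.33 for ETFDH as deposited. When centred on granulosa cell markers all 3 lie above 0, as do all 33 measured members, and the median of all measured genes is then itself 0.84. Quotients within the chain differed by less than the counting error, with an ETFA over ETFB quotient of 0.292 under supplementation and 0.304 under restriction (0.964-fold in reads, 0.867 to 1.07) and an ETFDH over ETFB quotient of 0.0990 under supplementation and 0.107 under restriction (0.929-fold, 0.849 to 1.02).

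ETFA is the sum of 2 entries that differed in direction. The entry on chromosome 18, from 30510989 to 30587050, stood at 44.9 FPKM (795 reads) in the supplemented and 57.3 FPKM (1051 reads) in the restricted library. The entry on chromosome X spans 1099 bases, from 127319794 to 127320892, and stood at 4.98 FPKM (99 reads) with supplementation and 3.99 FPKM (82 reads) with restriction. The ratio of the X entry was 1.25 (0.923 to 1.70), so its direction was not settled by the reads. Whether it shares reads with the chromosome 18 entry was not tested, and its values are uncertain for that reason.

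**Figure D3:**
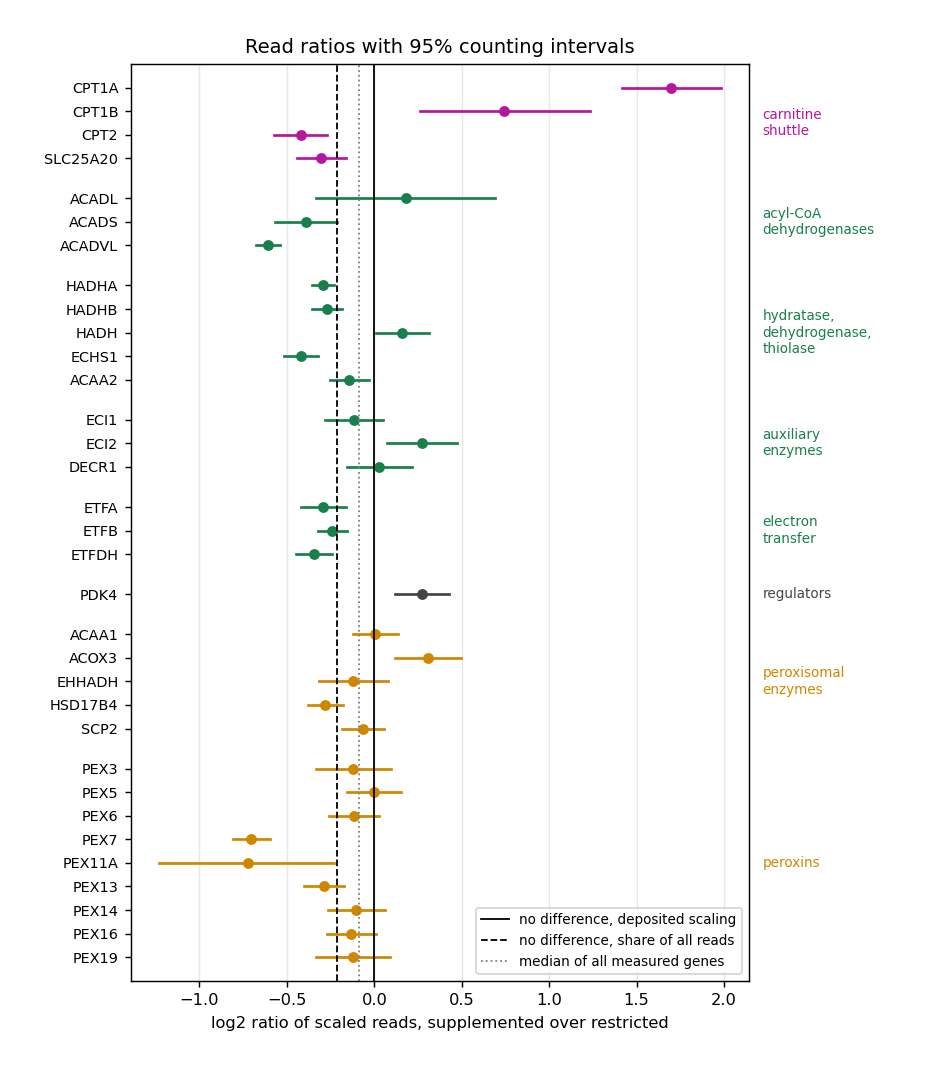
Log2 ratio of scaled reads, supplemented over restricted, for the 33 measured members with 95% exact counting intervals, coloured by set. The solid line marks equality with the deposited scaling, the dashed line equality by share of all reads (0.21 lower) and the dotted line the median read ratio of all measured genes (-0.09). CPT1A stands to the right of every other member, and ACADVL, PEX7 and PEX11A stand to the left.

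Of the regulators, PDK4, the kinase that switches off pyruvate dehydrogenase when fatty acids are burned, was slightly higher. It stood at 32.6 FPKM (738 reads) in the supplemented and 27.0 FPKM (633 reads) in the restricted library, 1.21-fold (1.08 to 1.34), with the interval above 1 under both scalings. PDK2, a related kinase named after its values were seen, stood at 27.1 FPKM with supplementation and 26.9 FPKM with restriction, and the quotient of PDK4 over PDK2 was 1.20 under supplementation and 1.00 under restriction (1.20-fold in reads, 1.02 to 1.40). PPARGC1A, the coactivator of mitochondrial biogenesis, was at or under the limit that a count of 0 allows (3 reads) in both libraries, so no fold is given.

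Peroxisomal genes lay near the median of all genes. All 14 were measured, with a median log2 ratio of -0.11 as deposited, against -0.08 for all measured genes. It was 0.085 against 0.11 as a share of the library total, and 0.85 against 0.84 with granulosa cell markers as the baseline. Intervals lay wholly below 1 for 4 (28.6%, against 35.7% of all measured genes) and wholly above 1 for 1 (7.14%, against 20.4%). Against each library total, 2 lay under 1 (14.3%, against 19.4%) and 4 over 1 (28.6%, against 35.3%). The summed level of the 5 enzymes was 102 FPKM in the supplemented and 105 FPKM in the restricted library. Summed mitochondrial beta-oxidation over summed peroxisomal enzymes gave a quotient of 6.75 under supplementation and 7.83 under restriction (0.863-fold in reads, 0.825 to 0.903). With the peroxins counted as peroxisomal, the FPKM quotient was 2.12 with supplementation and 2.09 with restriction although its read ratio was 0.931 (0.901 to 0.962), and without PEX7 it was 2.84 with supplementation and 3.15 with restriction.

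Among the peroxisomal enzymes, ACOX3, an oxidase of branched chains, stood at 15.7 FPKM (507 reads) in the supplemented and 12.7 FPKM (425 reads) in the restricted library, 1.24-fold higher (1.08 to 1.41) under the deposited scaling and above 1 by share as well. The 2 multifunctional enzymes of the next steps were lower or level: HSD17B4, the D-bifunctional protein, at 17.8 FPKM with supplementation and 21.6 FPKM with restriction (log2 ratio -0.27), and EHHADH, the L-bifunctional protein, at 8.29 FPKM with supplementation and 9.00 FPKM with restriction with an interval that spanned 1. ACAA1, the peroxisomal thiolase, was level at 34.0 FPKM with supplementation and 33.8 FPKM with restriction (ratio 1.00, 0.920 to 1.10). SCP2, which gives a thiolase and a lipid transfer protein, stood at 26.2 FPKM with supplementation and 28.1 FPKM with restriction over 2 entries. Nearly all SCP2 reads came from the entry on chromosome 1 from 27154633 to 27247977 (1091 reads with supplementation and 1172 reads with restriction), and the other entry had 9 reads with supplementation and 18 reads with restriction.

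Peroxins import the enzymes and build the organelle. All 9 had log2 ratios below 0 as deposited (100%, against 57.8% of all measured genes), from -0.70 to a value of -0.00 for PEX5. The median of their log2 read ratios was -0.12 as deposited and 0.09 by share of all reads, against -0.09 and 0.12 for all measured genes. In 3 peroxins the interval lay wholly below 1 (33.3%, against 35.7% of all measured genes), and in 6 it spanned 1. PEX7, the receptor for cargo with the second type of peroxisomal targeting signal, had the lowest ratio of all members on the FPKM + 1 scale, where PEX11A was lowest by reads. Its locus is chromosome 8 from 61843320 to 61916494. It stood at 81.7 FPKM (1160 reads) in the supplemented and 133 FPKM (1957 reads) in the restricted library, 1.63-fold lower (1.51 to 1.75). It was below 1 with the deposited scaling and by share of all reads. Its log2 ratio was 0.33 when centred on granulosa cell markers, against a median of 0.84 for all measured genes. PEX5, the receptor for the first type of signal, was level as deposited, at 17.2 FPKM (657 reads) with supplementation and 17.3 FPKM (681 reads) with restriction. The quotient of PEX7 over PEX5 was 4.74 under supplementation and 7.71 under restriction, 0.614-fold (0.539 to 0.701). The high FPKM of PEX7 goes with a short transcript model, as PEX5 had 2.68 times as many reads per FPKM.

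PEX11A, which promotes division of peroxisomes, rested on few reads, with 4.58 FPKM (55 reads) in the supplemented and 7.56 FPKM (94 reads) in the restricted library, 1.65-fold lower (1.17 to 2.35). PEX13 and PEX14 form the docking site for the import receptors. PEX13 stood at 23.6 FPKM with supplementation and 28.8 FPKM with restriction (log2 ratio -0.28) and PEX14 at 7.84 FPKM with supplementation and 8.42 FPKM with restriction (-0.09), and their quotient was 3.01 with supplementation and 3.42 with restriction (0.879-fold in reads, 0.765 to 1.01). PEX3, PEX16 and PEX19, which insert membrane proteins, had log2 ratios of -0.10, -0.13 and -0.12, and PEX6, an ATPase that recycles the receptors, -0.11. Each of these 4 had an interval that spanned 1 under both scalings. PEX3, PEX6 and ETFDH share their locus in the deposited table with DEADC1, GNMT and PPID, so reads at these loci may have been divided.

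The order of the members by level was much the same in both libraries. ETFB led, and ECHS1, PEX7 and ACADVL took the next 3 places in both, with PEX7 above ECHS1 in the restricted library. At the low end, ACADL, CPT1B, PEX3 and PEX11A held the last 4 places in the supplemented library, at 1.98 to 4.58 FPKM. In the restricted library CPT1B, ACADL and CPT1A were lowest, at 1.39, 1.75 and 2.88 FPKM, and the counting intervals of CPT1B and ACADL overlap. CPT1A was at or above 46.2% of measured genes under supplementation and 19.2% of them under restriction.

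Other genes of fatty acid oxidation were drawn from a list of 87 names, of which 83 were found and 72 measured. Their median log2 ratio was -0.09, against -0.08 for all measured genes, with 1 at least 2-fold higher (1.39%, against 5.87%) and 3 at least 2-fold lower (4.17%, against 2.85%). Counting intervals with the deposited scaling lay wholly above 1 for 10 (13.9%, against 20.4%) and wholly below 1 for 29 (40.3%, against 35.7%). As a share of the library total the balance turned over, with 25 above 1 (34.7%, against 35.3%) and 18 below (25%, against 19.4%). UCP2, a carrier of the inner mitochondrial membrane that leukocytes also express, stood at 62.3 FPKM (1004 reads) in the supplemented and 18.0 FPKM (300 reads) in the restricted library, 3.46-fold higher (3.04 to 3.95). The part of leukocytes in this value was not tested, and their markers summed to 526 FPKM with supplementation and 109 FPKM with restriction. SLC27A2, an activating enzyme for very long chains, stood at 1.54 FPKM with supplementation and 4.26 FPKM with restriction and PHYH, which starts the breakdown of phytanic acid, at 20.1 FPKM with supplementation and 42.3 FPKM with restriction, 2.10-fold lower (1.89 to 2.34). SLC27A2 and PHYH are known for the handling of very long or branched chains, and both had intervals below 1 with the deposited scaling and by share of all reads.

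**Figure D4:**
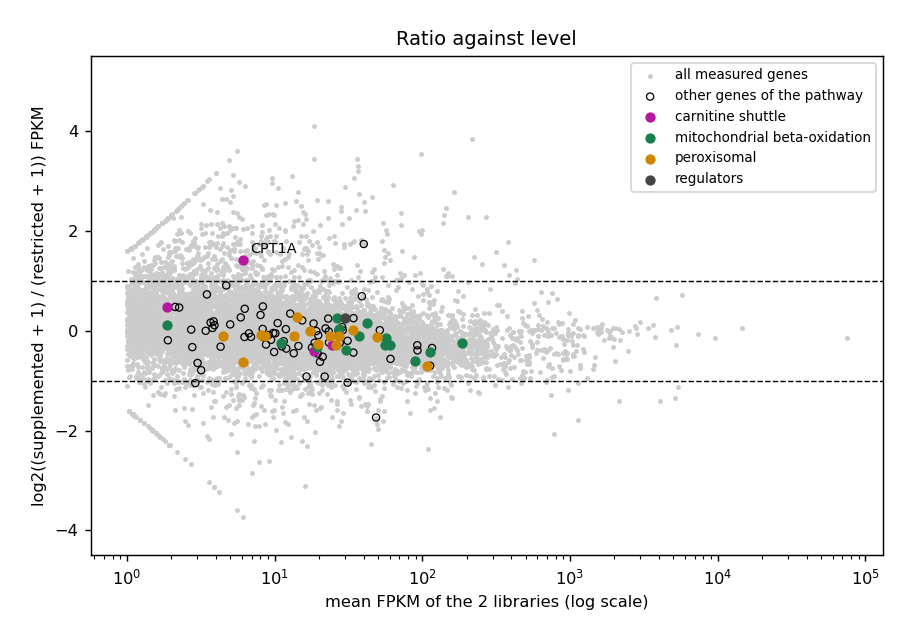
Log2 ratio on the FPKM + 1 scale against mean FPKM (log axis) for all 11927 measured genes (grey), the 33 measured members (filled, coloured by set) and 72 other genes of the pathway (open circles). Dashed lines mark 2-fold. CPT1A is the member outside them, at a log2 ratio of 1.41.

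The 11 granulosa cell markers had a median log2 ratio of -0.98, with values from -1.72 to -0.18. Taking their median read ratio as the baseline adds 1.04 to the log2 read ratio of every gene. With that baseline the median log2 ratio was 0.82 for the 33 measured members, against 0.84 for all measured genes.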

How the data were processed

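RNA of granulosa cells was sequenced on an Illumina instrument, with 1 TruSeq library per feed level (15 PCR cycles), per the labels' protocols. Per the submitters' processing notes, reads were handled with TopHat and Cuffdiff on Oar_v3.1, whose versions and annotation are not given in the sources used here. A single deposited table holds 22881 transcript entries. Its count columns are a signal, since the authors scaled them: a read counts as 1.02 (supplemented) or 0.983 (restricted). Division by these steps gave whole numbers, to within 0.02 of a read, for 98.5% (supplemented) and 98.3% (restricted) of entries above 0. The authors also deposited FPKM, per the file headers, and a p-value, q-value and log2 fold change per entry, of which the log2 fold change is printed for CPT1A.

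FPKM and reads were summed per gene name. Genes with a mean of at least 1 FPKM were called measured, and log2((supplemented FPKM + 1) / (restricted FPKM + 1)) at or beyond 1 or -1 was the size threshold. This scale understates differences of low genes. Read ratios have exact Clopper-Pearson 95% intervals, quotients of genes have exact conditional intervals, and single levels have exact Poisson intervals. Scripts used Python 3.11.15, scipy 1.17.1 and pandas 2.3.3, and were tested on simulated reads. With 1 library per group no test of the feed levels was run. Starts in the deposited table count from 0 and are given here from 1. Of the 34 members found, 33 match a RefSeq name (ARS-UI_Ramb_v3.0, names only).

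All 35 members are named by rule, with the other pathway genes past the size threshold, of which 1 is not reported here. The members and lists were chosen with earlier results of these data known. Alternatives covered the pseudocount, the filter, the scaling, the entries per name and the threshold.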

Additional observations from a re-analysis of the deposited data

How the results depend on the processing

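CPT1A was the sole member at least 2-fold higher under pseudocounts of 0.1 and 1, filters of none, 1 and 5 FPKM, share of all reads, centring on all measured genes, trimmed mean scaling, the most abundant entry per name, names with 1 entry and read ratios. With a pseudocount of 5 its log2 ratio was 0.86, so 0 members passed. Centred on granulosa cell markers, 8 passed, where the median log2 ratio of all measured genes was itself 0.84. The share of all measured genes that passed with this centring was not counted. Counting intervals wholly above 1 gave 6 members and wholly below 1 gave 15. By share of all reads, an alternative chosen after seeing the data, these were 10 and 8. With a 1.5-fold threshold 3 members were lower (PEX7, PEX11A and ACADVL), where 0 were lower at 2-fold. ACADVL had the highest ratio of these 3, and 9.99% of all measured genes had a ratio at or below it. The median over all measured members was 0.078 by share of all reads and 0.82 centred on granulosa cell markers, against 0.11 and 0.84 for all measured genes, since these scalings add 0.21 and 1.04 to every read ratio. For mitochondrial beta-oxidation these medians were -0.042 and 0.76, and for peroxisomal genes 0.085 and 0.85. The carnitine shuttle median, 0.09 over 4 genes, was -0.29 over the 3 genes at 5 FPKM or more and 0.92 centred on granulosa cell markers. At a mean of at least 5 FPKM the median was -0.14 for the members and -0.14 for all genes. The shuttle median was also 0.20 with a pseudocount of 0.1 and -0.027 with a pseudocount of 5, so its sign depends on that choice. No paired analysis was possible because each feed level has 1 library, and leaving out a replicate was not possible for the same reason. Depth limits ACADL, CPT1B, PEX11A and PPARGC1A, each under 100 reads in at least 1 library.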
